A study of Mus musculus with 4 samples.

Results

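*Fhl1*, *Slc1a6*, *Anxa3* and *Adamts9* are the 4 genes, besides *Xbp1*, with a candidate spliced region in both the Tg and the Dtt experiment whose genomic boundaries overlapped. They were chosen by these measured boundaries, so the overlap itself is a description and no test was made of it. Together they had 4 of the 55 regions of the Tg list and 9 of the 2533 regions of the Dtt list. Of these 13 regions, 8 overlapped between the lists, 1 per gene and experiment.

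RNA-Seq reads of C57BL/6 mouse embryonic fibroblasts (MEFs), cells grown from mouse embryos, were used, with 1 heterozygous (Het) and 1 knockout (KO) library for *Ire1*α in each of 2 experiments. The Het cells were treated for 4 hours with 500 nM thapsigargin (Tg), which blocks the calcium pump of the endoplasmic reticulum (ER), or for 4 hours with 1 mM dithiothreitol (Dtt), which reduces disulfide bonds. The study's methods give the KO cells the same treatments, whereas the sample labels describe both KO libraries as untreated, so for the KO removal step treatment and genotype cannot be told apart under those labels. The Tg KO allele was made by removing the kinase domain through a floxed allele, and the Dtt KO allele removed both the kinase and the RNase domain. The Het libraries held about 8900000 reads of 35 nt (Tg) and 23000000 reads of 79 nt (Dtt), so treatment, read length, depth and knockout line cannot be told apart between the experiments. Each list gave the boundaries, splice length and supporting reads, in the Het library, of every region left after those with a match in the KO library were taken out, and neither list held a number for the KO library. With 1 library per group no difference had a replicate check, and the lists held no expression levels against which the cell type could be checked.

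Introns are removed from pre-mRNA by the spliceosome, which recognises a donor site that usually begins with GT and an acceptor site that usually ends with AG. A cell can join a donor to a later acceptor and leave out the exons between them, or use a donor or acceptor that lies a few bases from the usual one. *Ire1*α, the ER stress sensor, instead cuts *Xbp1* mRNA in the cytosol at sites without these signals. *Fhl1* encodes a LIM domain protein abundant in muscle, *Slc1a6* a glutamate transporter best known from Purkinje cells of the cerebellum, *Anxa3* a calcium-dependent phospholipid-binding annexin, and *Adamts9* a secreted metalloprotease that cleaves matrix proteoglycans.

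The junctions that overlapped between the experiments are given as the mm9 sequence on both sides of each gap joined together, because the shared and shifted splice sites can be read from them. The lists hold no read sequences, and a supporting read need not have covered all of these bases. Lower case marks the 15 bases before the removed stretch and capitals the 15 bases after it, read 5′ to 3′ on the plus strand of mm9. For *Slc1a6* and *Anxa3* the annotated junction that ends at the acceptor of the Dtt gap is printed beside them.
Fhl1, Tg, gap of 1797 bp at chrX:54043224-54045020: gtgaagtgcaacaagGGTTTGGTAAAGGCT
Fhl1, Dtt, gap of 85 bp at chrX:54044936-54045020: cggctctatgaacggGGTTTGGTAAAGGCT
Slc1a6, Tg, gap of 8659 bp at chr10:78254115-78262773: catggacctggtcagGTATGCACCAGTGGG
Slc1a6, Dtt, gap of 1925 bp at chr10:78254110-78256034: gctttcatggacctgAAATATGTTTCCACC
Slc1a6, annotated intron of 1920 bp at chr10:78254115-78256034: catggacctggtcagAAATATGTTTCCACC
Anxa3, Tg, gap of 88 bp at chr5:97257279-97257366: tctgctacatagtctGGTAGAAGAGATGAA
Anxa3, Dtt, gap of 3376 bp at chr5:97253991-97257366: tctggcagatgtaagGGTAGAAGAGATGAA
Anxa3, annotated intron of 3381 bp at chr5:97253986-97257366: ctgactctggcagatGGTAGAAGAGATGAA
Adamts9, Tg and Dtt, gap of 3971 bp at chr6:92791983-92795953: tccagatcctacaagGAACCGCACATTGTG

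The capitals of the *Fhl1* lines are identical, as are those of the *Anxa3* lines, since in each of these genes both experiments had the same acceptor. The *Slc1a6* junctions instead left exon 4 at donors 5 bases apart and entered different exons. None of the joined sequences, the annotated ones included, had an exact match of all 30 bases in the mm9 chromosomes, on either strand. In the coding transcripts of GENCODE vM1, the *Fhl1* Tg junction was found in Fhl1-005 and Fhl1-201, and the other joined sequences printed from the lists were in 0 coding transcripts.

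**Figure D1:**
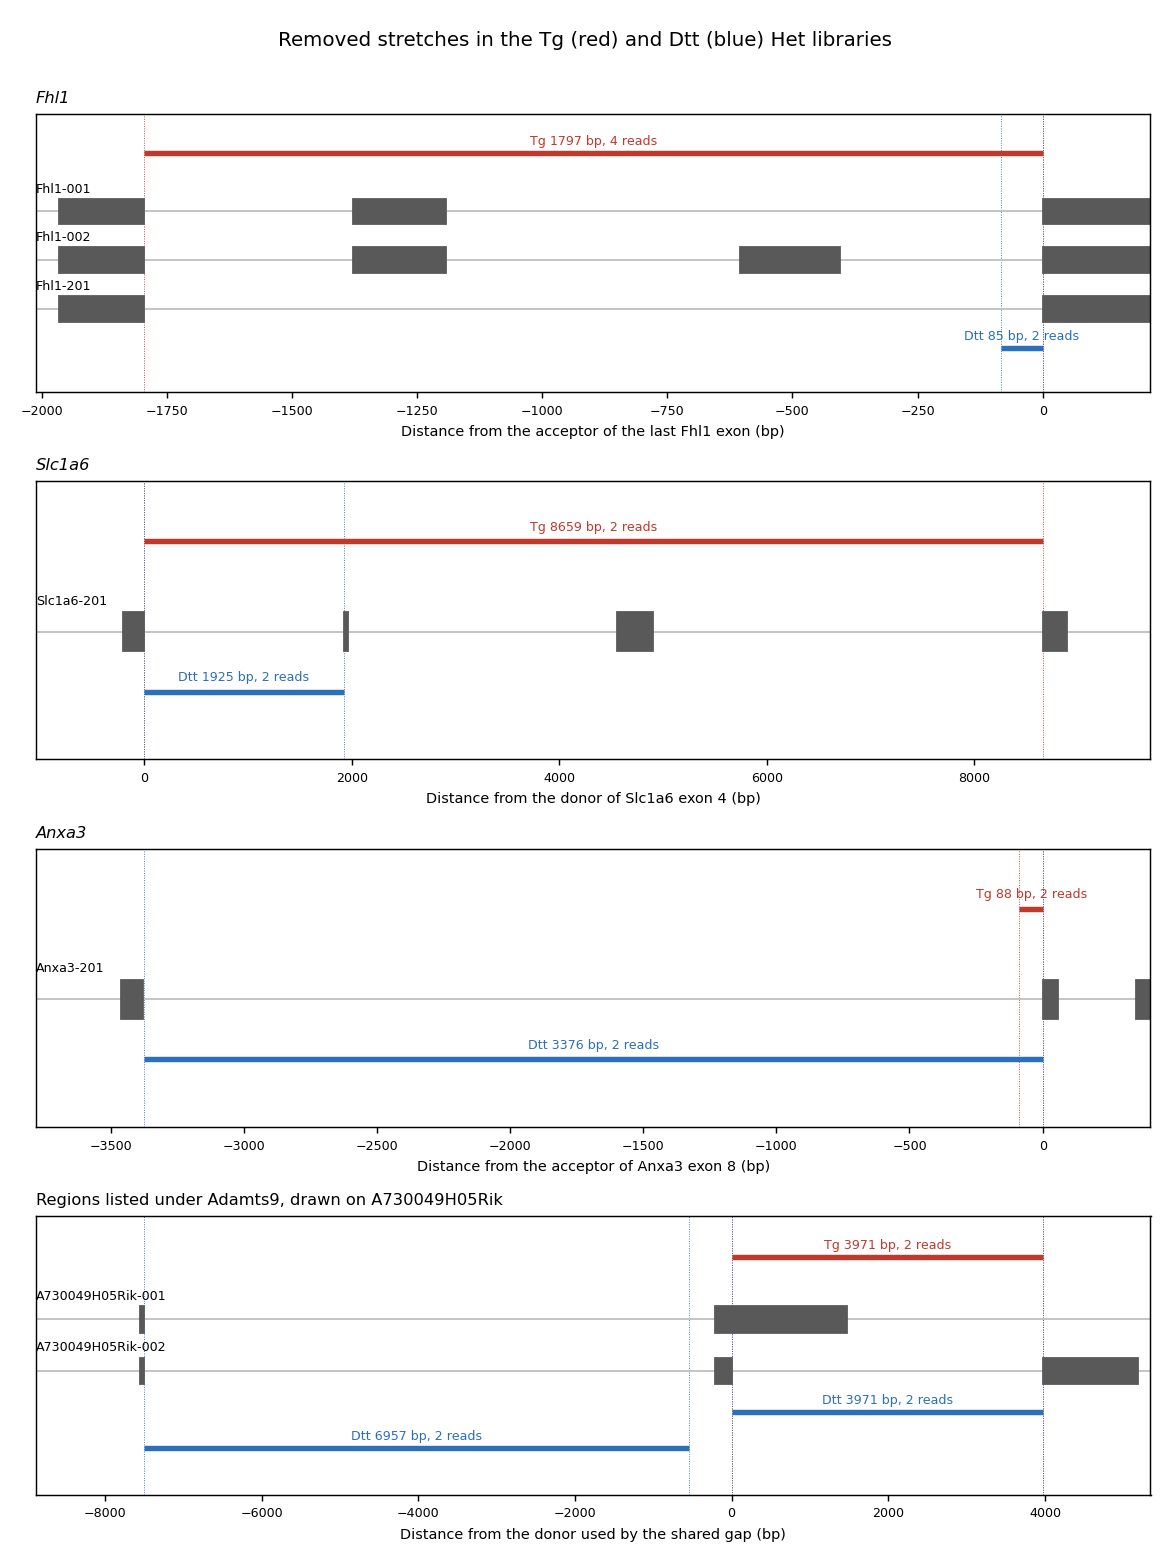
Map of removed stretches of the 4 genes, with the Tg gaps (red) above and the Dtt gaps (blue) below the annotated exons (grey boxes). The x axis of each panel is the distance in bp from a splice site used by the Tg gap. Drawn are the regions that overlapped between the experiments and every region listed under *Adamts9*. The other Dtt regions of *Fhl1* and *Anxa3* are not drawn. *Fhl1* and *Anxa3* share the acceptor at 0, the *Slc1a6* donors lie 5 bp apart and cannot be separated at this scale, and the 3971 bp gaps listed under *Adamts9* coincide.

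The reads behind these regions were few. The *Fhl1* Tg region had 4 supporting reads, which ranked it 2 in the Tg list after *Xbp1*. Each of the other 12 regions of the 4 genes had 2 reads, the least that a listed region can have, as did 89.1% of all Tg regions and 76.4% of all Dtt regions. The paper proposes that candidates backed by 2 to 4 reads only are probably false positives. All regions of the 4 genes fall in this range. Scaled to 1000000 reads of the library (RPM), the *Fhl1* Tg region had 0.449 supporting reads (exact Poisson 95% interval 0.122 to 1.15). A region with 2 reads corresponded to 0.225 RPM in the Tg library (0.0272 to 0.812) and to 0.0870 in the Dtt library (0.0105 to 0.314). These intervals overlap, cover counting error only, and allow no order between the experiments for any of the 4 genes. *Xbp1*, which the same overlap rule finds, had 21 reads in the Tg and 173 reads in the Dtt list and the same 26 bp gap in each.

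**Figure D2:**
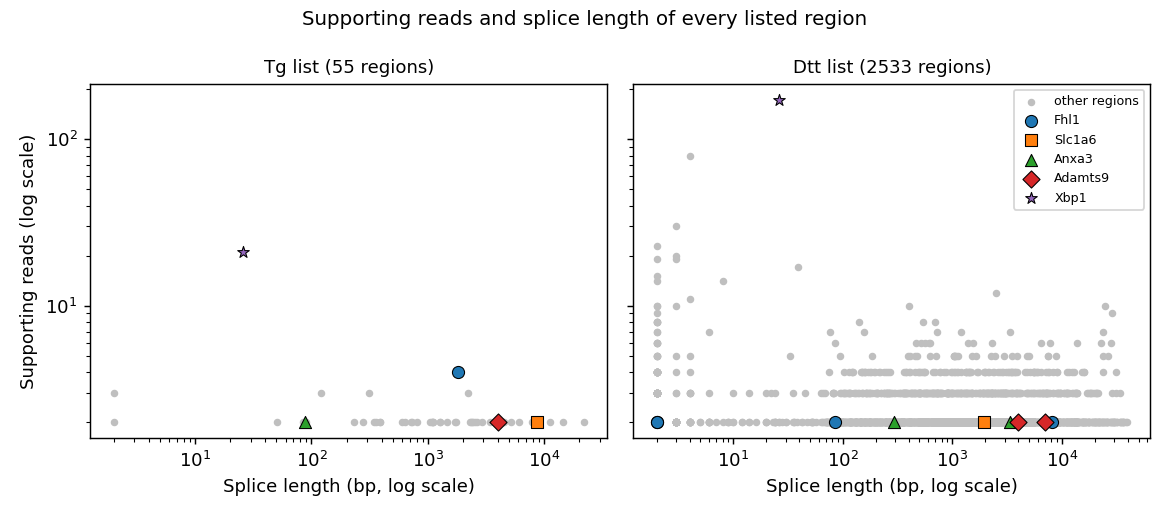
Supporting reads against splice length in bp for every region of the Tg list (left, 55 regions) and the Dtt list (right, 2533 regions), both axes on a log scale. The 4 genes lie at 2 reads in the Dtt list and, except *Fhl1* with 4 reads, in the Tg list, while *Xbp1* lies at 21 and 173 reads.

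The extent of overlap differed between the genes. The regions listed under *Adamts9* coincided over 3974 bp, that is 100% of each. The paper gives *Xbp1* as the only candidate that met its criteria in both experiments, whereas this *Adamts9* region stands in both lists. The *Slc1a6* regions overlapped over 1922 bp, which was 22.2% of the Tg and 99.8% of the Dtt region. *Anxa3* had an overlap of 89 bp, the whole of its Tg region and 2.63% of its Dtt region, and *Fhl1* one of 87 bp, which was 4.83% of its Tg and 100% of its Dtt region. The paper gives the *Fhl1* Tg region as not identified in Dtt. No *Fhl1* region of the Dtt list had the same splice length, and overlap of boundaries is the looser measure. Outside the rule, 18 of the 23 genes with a region in both lists had no overlapping regions. The nearest of these were *Ttc39b*, with 69 bp between its Tg and Dtt regions, *Atxn2l* with 158 bp and *Myl6* with 342 bp.

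The annotation places *Fhl1* (ENSMUSG00000023092.9) at chrX:53984964-54046523, transcribed from the plus strand, with 11 transcripts. Its Tg region, listed at 54043221 and 54045021, ran from the donor of exon 5 of the transcript Fhl1-001 to the acceptor of exon 7, the last exon, and both ends lay in coding sequence. It left out exon 6 of Fhl1-001, of 187 bases. In Fhl1-002 it spanned that exon and another of 200 bases, 387 bases in all, which are 129 whole codons. The gap was itself an intron of Fhl1-201 and Fhl1-005, so it joined annotated exons in an annotated order. From the annotated start codon, the reading frames of Fhl1-201 and Fhl1-005 held 194 and 210 codons, against 280 in Fhl1-001 and 323 in Fhl1-002. The frames of Fhl1-201, Fhl1-005 and Fhl1-002 ended at the same stop codon, and that of Fhl1-001 at another one in the same exon.

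The overlapping Dtt region of *Fhl1* shared this acceptor but began 1712 bases further downstream, within the last intron. Its donor lay 320 bases past exon 7 of Fhl1-002, at no annotated splice site. It was the only region of the 4 genes with GC-AG ends, on the strand of the gene, which with no GT-AG placement were found in 41 of the 2533 Dtt regions (1.62%). The removed 85 bases are printed here with the first and last 2 in capitals, because they carry the GC and the AG.
Fhl1, Dtt, chrX:54044936-54045020, plus strand of mm9: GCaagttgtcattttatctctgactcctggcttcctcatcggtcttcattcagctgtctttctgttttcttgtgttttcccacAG

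The Dtt list held 3 more *Fhl1* regions, with 2 reads each, that overlapped no Tg region. One of 8080 bp, from 54033086 to 54041165, was the first intron of Fhl1-007 and joined exons of its 5′ UTR. The others were 2 bp long and lay in the 3′ UTR of the last exon. The first of them, listed at 54045955 and 54045966, lay in a run of T, over which a 2 bp gap has 10 possible placements. The second, listed at 54046070 and 54046084, lay in no such run and its boundaries were 14 bp apart, farther than a single 2 bp gap allows. Regions of 2 bp made up 14.3% of the Dtt list and 3.64% of the Tg list.

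For *Slc1a6* (ENSMUSG00000005357.8, chr10:78243241-78277570, plus strand), GENCODE vM1 gives 1 transcript, Slc1a6-201, with 10 exons. The Tg region joined the annotated donor of exon 4 to the annotated acceptor of exon 7, and so left out exons 5 and 6, of 43 and 344 bases. Together they hold 387 bases, and the reading frame with this junction kept the annotated stop and held 432 codons, 129 fewer than the 561 of Slc1a6-201. No annotated intron joined this pair of sites. The Dtt region ended at the annotated acceptor of exon 5 and began 5 bases before the annotated donor of exon 4, so that the last 5 bases of exon 4 were removed with the intron. With this junction the reading frame met a stop codon in exon 5, after 183 codons. Both frames take the rest of Slc1a6-201 as annotated, which the lists do not show and which was not tested. Both regions had 2 reads and GT-AG ends, and the Tg region was longer than all but 3 of the 55 Tg regions.

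Like *Slc1a6*, *Anxa3* (ENSMUSG00000029484.8, chr5:97222404-97274987, plus strand) has 1 annotated transcript, Anxa3-201, of 13 exons. Both overlapping regions ended at the annotated acceptor of exon 8 and began inside intron 7, which is 3381 bp long. The donor of the Dtt region lay 5 bases past exon 7, so that its joined sequence retained the 5 bases gtaag of the intron. These 5 bases shifted the reading frame, with the rest of the transcript taken as annotated. The frame then met a stop codon in exon 9 after 210 codons, against 323 codons in Anxa3-201. The donor of the Tg region lay 3293 bases past exon 7, at no annotated site, and only the last 88 bases of the intron were removed. They are printed here with the GT and AG in capitals, as the whole stretch that the Tg reads lacked.
Anxa3, Tg, chr5:97257279-97257366, plus strand of mm9: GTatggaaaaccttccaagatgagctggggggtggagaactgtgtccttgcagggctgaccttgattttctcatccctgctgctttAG

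A second Dtt region of *Anxa3*, of 292 bp and 2 reads, from 97226128 to 97226419, overlapped no Tg region. It ended at the annotated acceptor of exon 2, in the 5′ UTR, and began in intron 1, 3545 bases past exon 1 in an intron of 3837 bp. All 3 *Anxa3* regions thus joined an annotated acceptor to a donor within the intron before it, and none of these donors was annotated.

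Of the 4 genes, *Adamts9* (ENSMUSG00000030022.8, chr6:92722693-92893486) is the only one transcribed from the minus strand. The 3 regions listed under its name, 1 Tg and 2 Dtt, all lay within intron 28 of Adamts9-001, which spans 25777 bp, and none of their ends was a splice site of *Adamts9*. Read on the minus strand none had GT-AG ends, and read on the plus strand all 3 had them. On the plus strand this stretch belongs to *A730049H05Rik* (ENSMUSG00000048636.7, from 92766472 to 92797168), a gene whose function is not given here and which was named in neither list. The 3971 bp region, the same in both experiments with 2 reads in each, was the last intron of A730049H05Rik-002, a transcript annotated without a coding sequence. The Dtt region of 6957 bp, from 92784481 to 92791437, began at an annotated donor of *A730049H05Rik* and ended 329 bases before the annotated exon to which this donor is joined, in an annotated intron of 7286 bp. Between the end of this gap and the start of the 3971 bp gap lay 545 bases. The 3971 bp gap thus matched this antisense neighbour at both ends and the 6957 bp gap at 1 end, and neither matched *Adamts9* at any end. The library preparation is not described as keeping the strand of the RNA, so reads of *Adamts9* and *A730049H05Rik* cannot be told apart other than by the splice site bases.

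**Figure D3:**
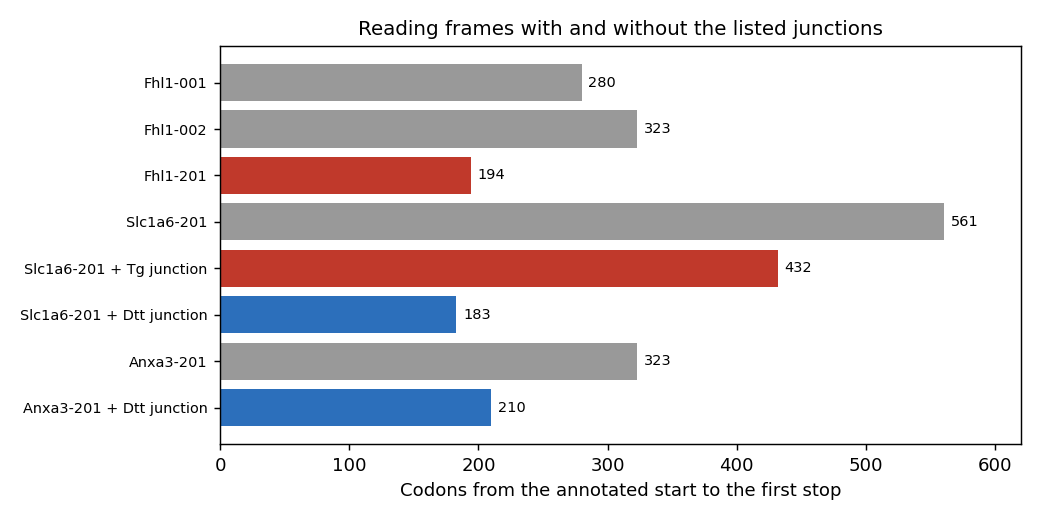
Number of codons from the annotated start to the first stop (x axis, from 0) for annotated transcripts (grey) and for those that carry a Tg (red) or Dtt (blue) junction, with Fhl1-201 in red because its annotated exons include the Tg junction (Fhl1-005, which also does, is not drawn). Fhl1-201 has 194 codons against 323 in Fhl1-002, and *Slc1a6* has 432 with the Tg and 183 with the Dtt junction against 561. Outside the junction, each *Slc1a6* and *Anxa3* transcript is taken as annotated, which was not tested.

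Across the 4 genes, 10 of the 13 regions had GT-AG ends on one strand or the other, as did 90.9% of all Tg and 76.2% of all Dtt regions. On the strand of the named gene the count was 7 of 13, against 85.5% of the Tg and 73.9% of the Dtt regions, and the 3 regions that differed were those listed under *Adamts9*. GT-AG ends on the other strand only were found in 3.64% of the Tg and 2.09% of the Dtt regions. For 14 of the 53 Dtt regions of this kind a splice site was annotated on that strand, and 5 of them matched an annotated intron. At least 1 end lay at an annotated splice site in 11 of the 13 regions and in 8 of the 8 that overlapped between the experiments, beside 92.7% of the Tg and 76.2% of the Dtt regions. The 2 regions without such an end were the 2 bp regions of *Fhl1*. For the 3 regions listed under *Adamts9* the sites were those of *A730049H05Rik*, and on the strand of the named gene 8 of the 13 regions had an annotated end, beside 89.1% of the Tg and 75.6% of the Dtt regions counted in the same way. An annotated intron was matched by 4 of the 13 regions, of which 2 were the 3971 bp regions and matched an intron of *A730049H05Rik*, beside 32.7% of the Tg and 14.6% of the Dtt list. These shares over the lists are the background for counts too small to show a difference, and nothing particular to the 4 genes was read from them.

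An end shifted by up to 5 bp from an annotated intron with the same other end was found in 2 of the 13 regions, the Dtt regions of *Slc1a6* and *Anxa3*. Over the lists this was the case for 9.09% of the Tg and 7.50% of the Dtt regions. Of the 190 Dtt regions of this kind, 73 were shifted by 4 bp, 68 by 3 bp and 28 by 5 bp. The authors had left out regions within 5 bp of a junction known to UCSC, so these counts also reflect that filter, whose part in them was not tested.

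The bases around each donor and acceptor were scored by position weights taken from the 233463 annotated GT-AG introns, where a higher score means bases more like those of annotated sites. The donors outside the annotation scored low. The *Anxa3* donors fell at percentile 1.13 (Tg), 6.93 (Dtt, 3376 bp) and 1.97 (Dtt, 292 bp) of annotated donors, while the annotated donor of intron 7 fell at 31.6. The *Slc1a6* Dtt donor was at percentile 12.4, while the annotated donor of exon 4, which the Tg region used, was at 29.7. The donor of the *Fhl1* Tg region was at percentile 77.8 and that of the 3971 bp region at 17.6. The GC donor of *Fhl1* was not scored, since the weights were taken from GT donors.

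The acceptors covered a higher range. They ran from percentile 37.6, for *Anxa3* exon 8, to 93.3, for the last *Fhl1* exon. The unannotated acceptor of the 6957 bp region was at 64.8. In *Anxa3* and *Fhl1*, the acceptor shared by both experiments was thus annotated, and in each gene at least 1 of the donors joined to it was not.

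**Figure D4:**
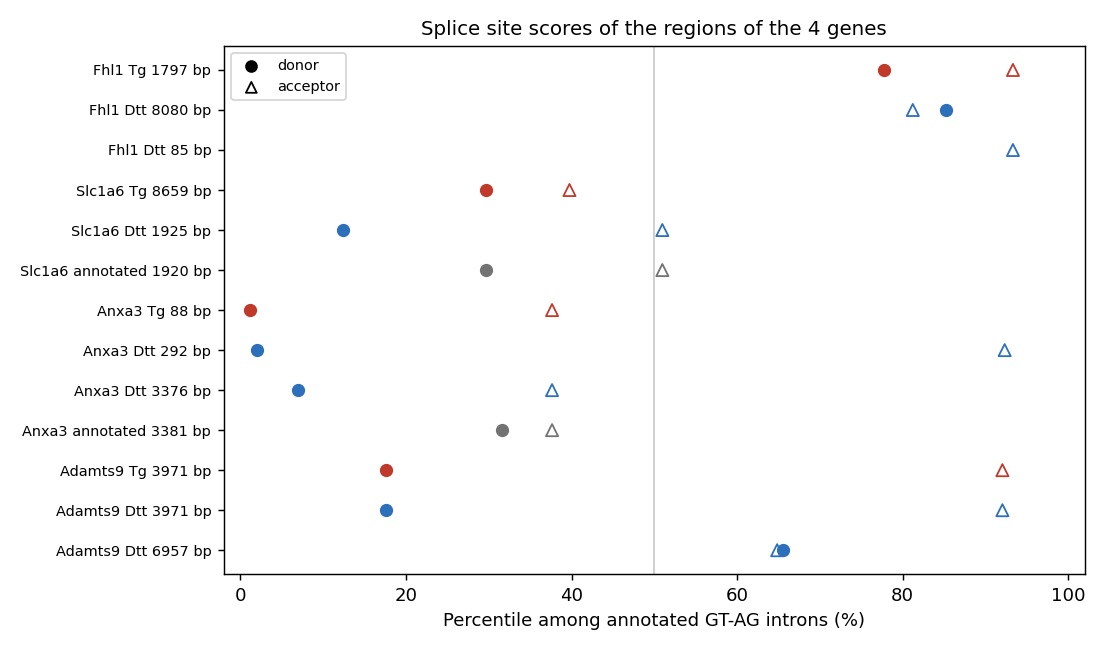
Percentile of each donor (filled circles) and acceptor (open triangles) among annotated GT-AG introns, in %, for the Tg (red) and Dtt (blue) regions of the 4 genes and for the annotated introns (grey) with the acceptors of the Dtt regions of *Slc1a6* and *Anxa3*. The *Anxa3* donors lie between 1.13 and 6.93 and the annotated donor at 31.6, and no circle is drawn for the GC donor of *Fhl1*.

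Of 44 annotated relatives of the 4 genes, 5 (11.4%) had a Dtt region and 0 a Tg region. Over all 22238 protein-coding gene symbols of the annotation the shares were 8.71% for the Dtt and 0.229% for the Tg list, so these counts are not read as a result about the families. Of the 5 genes of the Fhl family, whose proteins consist of LIM domains, *Fhl2* and *Fhl3* also had Dtt regions, of 3240 and 5187 bp in *Fhl2* and of 1611 bp in *Fhl3*, all with 2 reads, GT-AG ends and 1 annotated end. Of the 7 Slc1a transporter genes, which carry glutamate or neutral amino acids, *Slc1a6* alone was listed. Among 12 annexins, *Anxa9* had a Dtt region of 560 bp with 3 reads and both ends at annotated sites. Of the 24 annotated Adamts and Adamtsl genes, *Adamts6* had Dtt regions of 704 bp with 5 reads and of 1922 bp with 2 reads, and *Adamts5* one of 2 bp with 2 reads.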

How the data were processed

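Poly-A mRNA of 1 Het and 1 KO library per experiment was sequenced. The authors mapped reads with Bowtie to mm9 and known UCSC junctions, cut each unmapped read into 2 parts, and mapped the parts without mismatches. The deposited counts are raw supporting reads per region of the Het library, at least 2. Both parts had to match the same gene, and regions within 5 bp of a known UCSC junction or found in the KO library had been removed. The KO column holds no number, and 0 other columns were left unused.

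Here, each gap was placed on the mm9 (NCBIM37) sequence within its listed boundaries or by sliding over equal bases. An annotated GENCODE vM1 intron was preferred, then GT-AG ends. Symbols gave the annotated gene for 53 of 55 Tg and 2482 of 2533 Dtt regions and position that of 1 and 41. The rest had no strand and were counted as without any feature that needs the strand of the named gene. Their GT-AG ends were still counted in the share on either strand. Donors were scored over 3 exon and 6 intron bases, acceptors over 20 intron and 3 exon bases. Placement was tried on annotated introns written as regions and on gaps of equal length moved elsewhere. Since annotated introns are preferred, recovery of these introns was fixed in advance and says nothing of unannotated gaps. Intervals are exact Poisson 95% intervals and cover counting error only. No statistical test was made.

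The genes, families and named neighbours follow a fixed rule, but the members and lists were chosen with earlier results of these data known. Alternatives were other definitions of overlap, strand, placement, denominators and subsets of the lists. Sequence was read with pysam 0.24.0 in Python 3.11.15, weights and intervals came from numpy 2.4.6 and scipy 1.17.1, and plots from matplotlib 3.10.9.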

Additional observations from a re-analysis of the deposited data

How the results depend on the processing

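The 4 genes were also the 4 that overlapped by the gaps as placed and by position whatever gene name was listed. With at least 50% of the longer region in common, or with equal splice length and both boundaries within 5 bp, 1 gene was left, *Adamts9*. With at least 3 reads in either experiment, 1 gene was left as well, *Fhl1*. Pairs that share a splice site were 3, as were pairs with an equal listed boundary at 1 side. Pairs with a listed boundary within 5 bp were 4. The pair added there, *Slc1a6*, has donors 5 bp apart and shares no splice site. Of the regions of the 4 genes, 53.8% had GT-AG ends on the gene's own strand, and 76.9% on either strand, the regions listed under *Adamts9* being the difference, and the share with an annotated end, 84.6%, was 100% among those that overlapped, which leaves out the 2 bp regions, and 61.5% over all when only sites on the strand of the named gene counted. The Dtt over Tg ratio of RPM of the overlapping regions, which are the same junction for *Adamts9* alone, was 0.193 for *Fhl1*, 0.100 with unmapped reads as the denominator and 0.0105 with all supporting reads of the list. For *Slc1a6*, *Anxa3* and *Adamts9* it was 0.387, 0.200 and 0.0210 in the same order of denominators. These 3 genes had 2 reads in each list, the least a listed region can have. Their ratios therefore restate the denominators and show nothing about the genes. Counting all regions listed under each gene gave 0.774 for *Fhl1*, *Anxa3* and *Adamts9* and 0.387 for *Slc1a6*; this alternative was chosen after seeing the data. Over the Dtt list, GT-AG ends on the gene's strand went from 73.9% to 77.2% with 1 region per gene and 91.0% for regions of at least 50 bp, and annotated ends from 76.2% to 79.5% and 93.7%. With 2 reads as the least a listed region can have, a region missing from a list is not shown to be absent from the cells. No paired analysis was possible because there is only 1 library in every group.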
